A study of Mus musculus with 4 samples.

Results

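Vsig4 and 8 further genes that mark the resident macrophages of the heart (Lyve1, Timd4, Folr2, Cd163, Mrc1, F13a1, Cbr2 and Gas6) were followed in infarcted left ventricles with and without KDM5B. These 9 genes were chosen by name after Vsig4 had been seen to be higher in the knockout samples, so the Vsig4 difference is a description with no test. They were found through every non-control probe that carries one of the names in the array files, which gave 10 probes of 41174 and 9 genes of 20049. All 9 genes passed the filter on dim probes, as did 15061 genes in all, but Timd4 passed only through the knockout arrays and 8 were well above background on all 4 arrays.

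RNA came from left ventricles of C57BL/6 wild-type (WT) mice and of KDM5B-knockout (KO) mice, labelled male and aged 8–10 weeks at surgery per the methods, all at 7 days after myocardial infarction produced by permanently tying the left anterior descending artery. The KO mice carry a CRISPR/Cas9 deletion of the Kdm5b stretch that contains the JmjC domain, with a frameshift, in every cell type. Each group had 2 Agilent one-colour arrays, numbered 2 and 3 in the sample titles, and no sham-operated heart was analysed here, so each value describes infarcted tissue. Levels are given in log2 units above or below each array's 75th percentile of signal, and a difference always means the KO level less the WT level, so that 1 unit is 2-fold.

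Resident macrophages of the heart settle largely before birth and renew in place, and they clear dying cells, take up haemoglobin and hold back inflammation. After infarction many of them die in the injured region. Monocytes from the blood enter and become macrophages that share general macrophage genes but carry less of much of the resident set. The genes of the set are not confined to resident macrophages, as given for several below. The resident genes encode surface receptors for complement, phosphatidylserine, folate, haemoglobin and glycans, together with an intracellular enzyme, a crosslinking enzyme and a secreted bridging ligand.

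The labels were checked first. Kdm5b, which carries the deletion, was lower on both KO arrays than on both WT arrays by both of its probes. The differences were -0.996 and -1.19, with an adjusted p of 0.9999 each (limma). The values on WT 2, WT 3, KO 2 and KO 3 were -0.87, -1.81, -2.40 and -2.26 by the first probe. By the second they were -2.43, -3.40, -4.35 and -3.86, so the gap was smaller at number 3 by both. The Kdm5b signal remained detectable in KO, well above background by either probe. Xist, the transcript of the inactive X chromosome, was well above background only on the arrays numbered 2 (4.36 on WT 2 and 3.997 on KO 2 by its brightest probe), and the Y-linked Ddx3y only on those numbered 3, although all samples are labelled male. Each number therefore pairs a WT and a KO array of the same sex-linked pattern, and differences are given within each number as well as between groups. All arrays lay on 1 slide, with WT at positions 1 and 2 and KO at positions 3 and 4, so position and genotype cannot be told apart. The 75th percentile of the signal ranged from 607.6 on KO 2 to 976.1 on WT 3.

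Of the 9 genes, 6 were higher in KO at both array numbers (Vsig4, Timd4, Folr2, Cd163, Cbr2 and F13a1), 2 were lower at both (Mrc1 and Gas6) and 1 was mixed (Lyve1). Among all 15061 tested genes, 25.8% were higher at both numbers and 18.4% lower at both. In 4 of the 9 genes (Vsig4, Folr2, Cd163 and Cbr2) the lower KO array exceeded the higher WT array, against 13.3% of all tested genes, and in 0 the order was the opposite one without overlap, against 8.9%. The mean difference exceeded 2-fold upward in 5 of the 9, where the share of all tested genes was 1.14%. These counts hold Vsig4, which chose the set, and those of mean fold and of both numbers also hold Timd4, which passed the filter only through the KO arrays, so nothing is read from the shares. Folr2, Cbr2 and Cd163 are the 3 over 2-fold among the other 7 genes. The count of 5 was 3 without KO 2, 2 without WT 3 and 3 with normexp background correction. The median difference over the 9 genes was 1.05, with 1.26 between the arrays numbered 2 and 0.50 between those numbered 3. Over all tested genes the median was 0.04. The median of the 9 also holds Vsig4 and Timd4, so nothing is read from it either. Among the other 7 genes, F13a1 lay in the middle with a difference of 0.46. Without KO 2 the median over the 9 genes was 0.52.

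No probe of the array passed the study's threshold of an adjusted p under 0.05 with a fold change over 2 (limma, 0% of 28303 probes), and 410 probes had an unadjusted p under 0.05. The adjusted p was 0.9999 for each of the 8 genes other than Vsig4, for which no p is given. No difference below therefore passed this test after adjustment over all 28303 probes. The adjusted p does not measure the spread of a single gene. An exact permutation test of 2 arrays against 2 cannot give a two-sided p under 0.333. Since the tissue is a mixture, fewer cells of a type and less RNA per cell cannot be told apart.

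**Figure D1:**
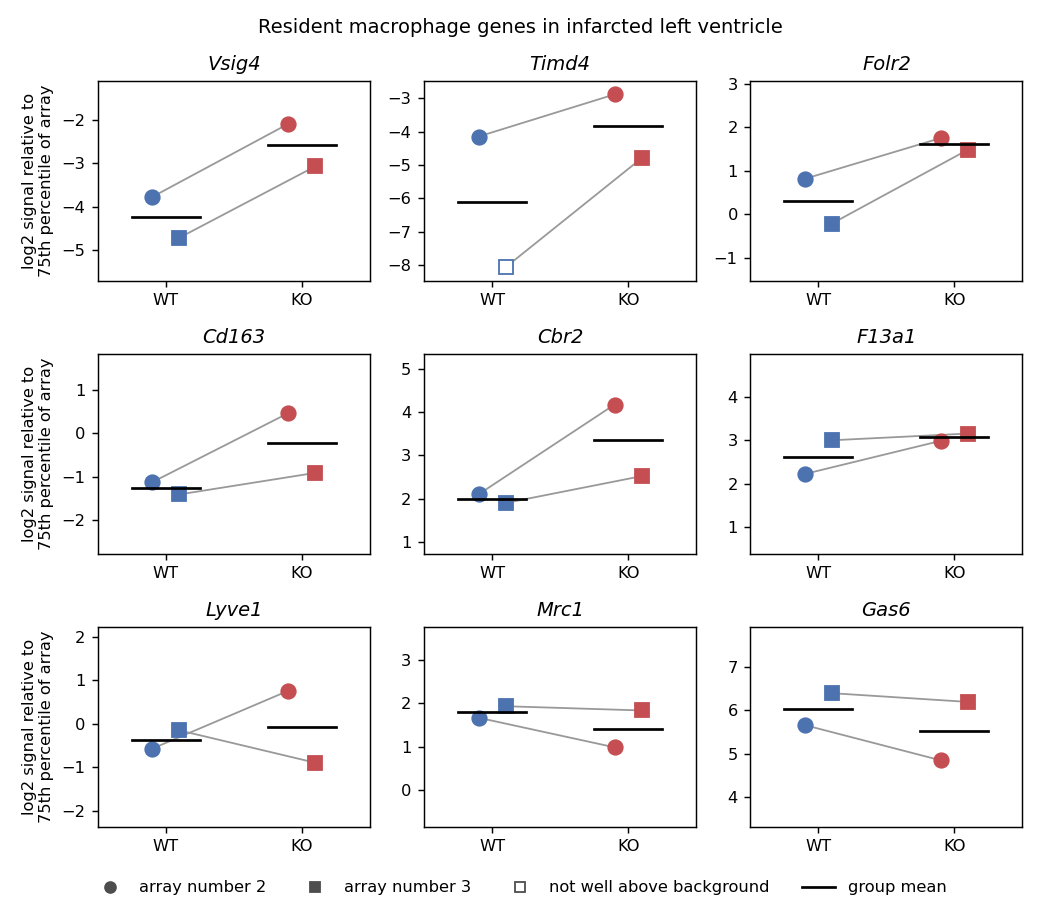
Log2 signal less the array's 75th percentile (y axis) for each of the 9 genes, with WT in blue and KO in red, 1 point per array (circle, number 2; square, number 3), grey lines joining arrays of the same number and black bars at group means. Each panel has its own y range. Both KO points lie above both WT points for Vsig4, Folr2, Cd163 and Cbr2, and the open square of Timd4 marks WT 3, which was not well above background.

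Vsig4, the complement receptor of the immunoglobulin superfamily (CRIg), binds C3 fragments on opsonized particles and is restricted to tissue macrophages. Its single probe lies on the minus strand of the X chromosome (chrX:93443157-93443216, mm9), and is shown because the set was chosen on its readout. The sequence can be read through without a stop codon in 1 of its 3 forward frames.

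Vsig4 probe: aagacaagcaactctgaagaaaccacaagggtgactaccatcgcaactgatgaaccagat

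Vsig4 stood at -3.78 on WT 2 and -4.72 on WT 3, against -2.09 on KO 2 and -3.07 on KO 3. Both KO arrays were above both WT arrays, and the group means were -4.25 ± 0.66 for WT and -2.58 ± 0.69 for KO (± SD, n = 2 each). The difference of 1.67, on which the set was chosen, is a 3.17-fold higher signal. It was nearly equal at the 2 array numbers, 1.69 at number 2 and 1.65 at number 3. Within a genotype the array numbered 2 was higher than that numbered 3, by 0.94 in WT and 0.98 in KO. The processed signals behind these values were 63.9, 37.1, 142.5 and 105.4, all well above background, and with normexp background correction the difference was 1.14.

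Timd4 (TIM-4), a phosphatidylserine receptor with which resident macrophages bind dying cells, gave -4.15 on WT 2 and -8.05 on WT 3, against -2.89 on KO 2 and -4.79 on KO 3 (chr11:46657173-46657232, mm9). Only 1 of the 2 WT arrays measured it, since WT 3 was not well above background, and KO 3 lay below WT 2. The difference was 2.26 (standard error 1.60), 1.26 at number 2 and 3.26 at number 3, where the WT value is the unmeasured one. Without WT 3 it was 0.31, and with normexp background correction 0.96.

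Folr2, the folate receptor beta, is a glycolipid-anchored protein of resident macrophages. Its probe lies at chr7:108988771-108988830 on the minus strand (mm9), and is printed because its 4 values followed those of Vsig4 more closely than those of any other of the 9 genes. It is open in 1 forward frame.

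Folr2 probe: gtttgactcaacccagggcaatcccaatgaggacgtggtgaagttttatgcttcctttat

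Folr2 was 0.82 on WT 2 and -0.22 on WT 3, against 1.76 on KO 2 and 1.49 on KO 3. Both KO values exceeded both WT values, with group means of 0.30 ± 0.73 for WT and 1.62 ± 0.19 for KO (± SD, n = 2 each). The difference of 1.32 (2.50-fold, standard error 0.44) was 0.94 at number 2 and 1.70 at number 3. Without KO 2 it was 1.19, and without WT 3 it was 0.81.

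Cd163, the scavenger receptor for haemoglobin bound to haptoglobin, was -1.13 on WT 2 and -1.41 on WT 3, against 0.47 on KO 2 and -0.91 on KO 3 (chr6:124280484-124280543, plus strand, mm9). The KO arrays were both higher than the WT arrays but lay far apart, with SDs of 0.97 in KO and 0.20 in WT (n = 2 each). The difference was 1.05 (2.06-fold, standard error 0.55), with 1.59 at number 2 and 0.50 at number 3. Without KO 2 it was 0.36.

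Cbr2, a carbonyl reductase that uses NADPH, was 2.10 on WT 2 and 1.90 on WT 3, against 4.17 on KO 2 and 2.52 on KO 3 (chr11:120590825-120590884, minus strand, mm9). Here too the groups did not overlap and KO 2 stood well above the other 3 arrays. The difference was 1.35 (2.54-fold, standard error 0.64), with 2.07 at number 2 and 0.62 at number 3, and it was 0.52 when KO 2 was left out. Cbr2 is also known from adipocytes, and adipocyte genes were high on KO 2. Cfd (adipsin) was 2.43 there and between -5.55 and -3.78 on the other arrays, Cidec, a lipid droplet protein, was -0.83 against -5.25 to -4.58, and Adipoq (adiponectin) was -1.59 there and not well above background elsewhere. Of the 8 adipocyte genes, 4 passed the filter, and their mean signal was 0.47 on KO 2 and between -3.44 and -2.84 on the other arrays. Lep and Ucp1 were not well above background on any array. That mean holds Cidea, which was 3.43 on WT 2 and 2.93 on WT 3, far above Cidec and Cfd there. Cidea differed by 1.25 at number 2 and -0.75 at number 3, the signs of the cardiomyocyte medians of 0.98 and -0.69. The mean is therefore not a measure of adipose signal alone. On KO 3 the adipocyte mean was -3.32, against -2.84 on WT 2 and -3.44 on WT 3, and Cbr2 was above both WT arrays. Of the 4 tested adipocyte genes, 3 were higher in KO at number 3. These include Retn, which passed the filter only through the KO arrays, so nothing is read from the count. At number 3 Cidec differed by 0.67 and Cidea by -0.75. The part of adipose tissue in the Cbr2 difference was not tested at either number.

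F13a1, the A subunit of the crosslinking enzyme factor XIII, was 2.22 on WT 2 and 3.0 on WT 3, against 2.99 on KO 2 and 3.16 on KO 3 (chr13:36959214-36959273, mm9). It was higher in KO at both numbers, by 0.76 and 0.15, but KO 2 did not exceed WT 3. The mean difference of 0.46 (standard error 0.35) was a 1.38-fold higher signal. It was 0.07 without WT 2 and 0.85 without WT 3. Platelets also hold F13a1. Of 5 tested platelet genes 2 were higher in KO at number 2, Gp9 by 1.73 and Ppbp by 1.08. Both were lower at number 3. Another 2 were lower at both numbers, among them Treml1 with -0.31 and -0.33. The median over the 5 was -0.27 at number 2 and -0.82 at number 3. The mean of the 5 was -3.26 on WT 2 and -1.98 on WT 3, against -2.92 on KO 2 and -2.60 on KO 3, and the part of platelets in the F13a1 values was not tested.

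Lyve1, a hyaluronan receptor of perivascular macrophages and lymphatic vessels, was measured by 2 probes on the minus strand of chromosome 7 (mm9). The probe at chr7:117994171-117994230 gave -0.57 on WT 2 and -0.15 on WT 3, against 0.76 on KO 2 and -0.90 on KO 3. The KO arrays bracketed the WT arrays, so the difference was 1.34 at number 2 and -0.75 at number 3, with a mean of 0.29 (standard error 0.66). The other probe, at chr7:117995668-117995726, showed the same order, with 1.44 at number 2, -1.20 at number 3 and a mean of 0.12. Of 7 lymphatic endothelial genes, 2 had the same signs as Lyve1, positive at number 2 and negative at number 3. These were Prox1, the regulator of lymphatic identity, with 0.60 and -0.70, and the integrin Itga9 with 0.26 and -0.38, named after their values were seen. All 7 were lower in KO on average (median -0.50), 4 of them at both numbers, and their mean signal was 0.21 on WT 2 and -0.42 on WT 3, against -0.39 on KO 2 and -1.14 on KO 3. Ccl21a, the lymphatic chemokine, differed by -1.57 and Mmrn1 by -1.12. The part of lymphatic vessels in the Lyve1 values was not tested.

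Mrc1, the mannose receptor CD206, was 1.67 on WT 2 and 1.93 on WT 3, against 0.99 on KO 2 and 1.84 on KO 3 (chr2:14253304-14253363, mm9). Gas6, the secreted ligand that bridges phosphatidylserine to the receptors Tyro3, Axl and Mertk, was 5.65, 6.39, 4.84 and 6.19 in the same order (chr8:13465444-13465503, mm9). Both were lower in KO at both numbers with overlapping groups, and both differed more at number 2. The differences were -0.39 (standard error 0.38) for Mrc1 and -0.51 (standard error 0.60) for Gas6. Without KO 2 both turned slightly positive, to 0.03 and 0.17. Gas6 is also made by fibroblasts and vessels, and the 7 fibroblast genes averaged 5.01 on WT 2 and 5.23 on WT 3, against 4.17 on KO 2 and 5.09 on KO 3, so fibroblast signal was lower on the same array as Gas6. Its part in the Gas6 difference was not tested.

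**Figure D2:**
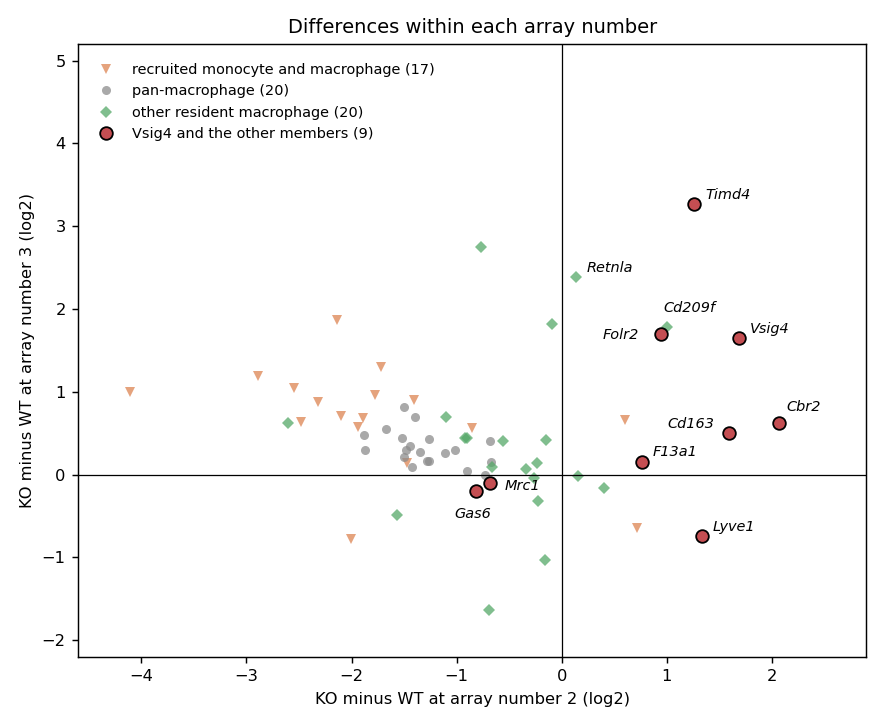
KO minus WT difference in log2 signal at array number 2 (x axis) and number 3 (y axis), 1 point per gene, for the 9 genes (red) and 3 macrophage lists with their gene counts in the legend. All 20 pan-macrophage genes (grey) lie left of 0 on x and above 0 on y, whereas 6 of the 9 genes lie above 0 on both axes.

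The signal of the resident genes was set beside that of macrophages in general. The 20 pan-macrophage genes (among them Adgre1, Csf1r, Cd68, the C1q genes and Ctss) averaged 2.99 on WT 2 and 3.53 on WT 3, against 1.69 on KO 2 and 3.86 on KO 3. All 20 were lower in KO at number 2 and higher at number 3, with medians of -1.37 and 0.29, so 0 of 20 were higher at both numbers and 0 were separated between groups. Cd53, a tetraspanin of leukocytes, differed by -0.79, Ctss, the lysosomal cathepsin S, by -0.70 and Tyrobp, an adaptor of immune receptors, by -0.67.

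The pan-macrophage mean of each array was then subtracted from the resident genes. Relative to it Vsig4 was -6.76 on WT 2 and -8.25 on WT 3, against -3.78 on KO 2 and -6.93 on KO 3, a difference of 2.16 with 2.98 at number 2 and 1.33 at number 3, and KO 3 lay below WT 2. The difference relative to the list was 0.58 without KO 2. Folr2 differed by 1.81 (2.24 at number 2 and 1.38 at number 3), Timd4 by 2.75 (2.56 and 2.94), Cbr2 by 1.83 (3.37 and 0.30) and Cd163 by 1.53 (2.89 and 0.18). F13a1 and Lyve1 differed by 2.06 and 2.63 at number 2, and by -0.17 and -1.07 at number 3. For Mrc1 and Gas6 the mean differences were 0.10 and -0.02. The subtracted mean itself differed by -1.30 at number 2 and 0.32 at number 3. Subtracting it therefore raised the difference of every gene at number 2 and lowered it at number 3. On this scale 5 genes, Vsig4 and Timd4 among them, were higher at both numbers, and in all 9 the KO and WT arrays overlapped. The share of all tested genes on this scale is not given here, so nothing is read from the count.

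Recruited monocyte and macrophage genes were lower on KO 2 in the same way. Of 17 genes, 15 were lower in KO on average, with a median of -0.67 (-1.94 at number 2 and 0.70 at number 3), and their mean signal was 1.70 on WT 2 and 1.86 on WT 3, against -0.08 on KO 2 and 2.55 on KO 3. Arg1, the arginase of wound macrophages, was 2.68, -0.05, -1.42 and 0.96 in the same order, and Il1b, the inflammatory cytokine, was 0.79, -0.43, -1.22 and -1.20. Il1b was therefore lower on both KO arrays than on both WT arrays, a difference of -1.39, while Arg1 overlapped between groups. Itgax (CD11c) differed by -0.92. Neutrophil genes followed, with a mean of -2.86 on KO 2 and between -0.33 and 0.27 on the other arrays, while cardiomyocyte genes went the other way, with means of 6.86 on WT 2 and 5.78 on WT 3, against 7.83 on KO 2 and 4.98 on KO 3. At number 2 the KO array thus held more cardiomyocyte and less leukocyte signal than the WT array, and at number 3 less cardiomyocyte and more macrophage signal. The part of this mixture in the differences of the 9 genes was not tested.

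**Figure D3:**
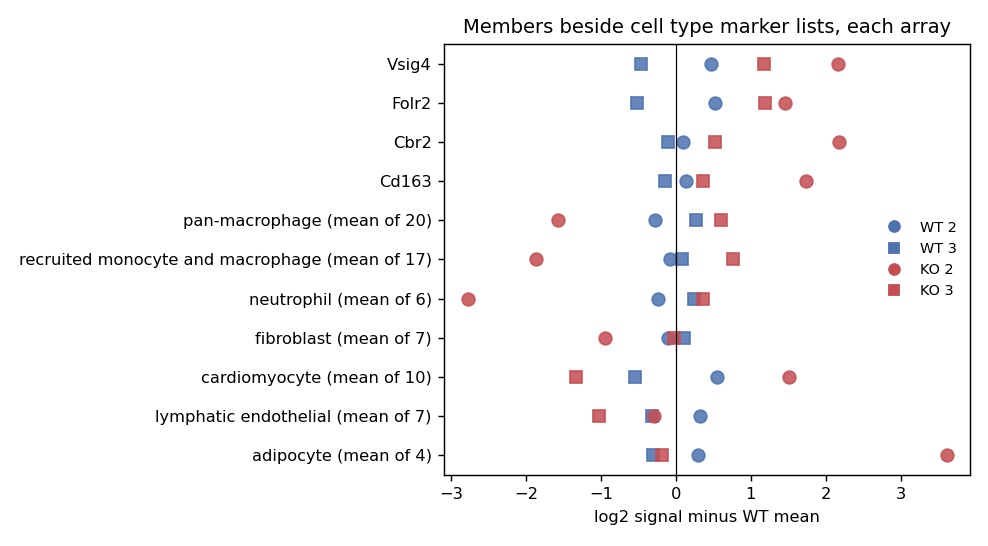
Log2 signal minus the WT mean (x axis) on each array for Vsig4, Folr2, Cbr2 and Cd163 and for the mean of 7 cell type marker lists, with the number of tested genes in brackets. KO 2 (red circle) lies to the left for the leukocyte and fibroblast lists and to the right for the cardiomyocyte and adipocyte lists, and KO 3 (red square) stays to the right of both WT arrays for the 4 genes.

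Other genes of resident macrophages did not follow Vsig4 as a list. Of 20 tested genes of 22, 2 were higher in KO at both numbers, 5 were lower at both and 13 were mixed, with a median of -0.14. The pair higher at both numbers comprised Cd209f, a C-type lectin of the DC-SIGN family, and Retnla, a secreted product of alternatively activated macrophages. Cd209f was -4.03 on WT 2 and -5.32 on WT 3, against -3.02 on KO 2 and -3.54 on KO 3, with both KO arrays above both WT arrays and a difference of 1.40. Retnla was -1.01, -4.0, -0.88 and -1.62 in the same order and differed by 1.26, with WT 2 above KO 3. In the opposite direction Slc40a1, the iron exporter ferroportin, was 1.62, 2.65, 0.93 and 1.01, a difference of -1.16 with both KO arrays below both WT arrays.

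Cavity macrophages of the pericardium and peritoneum, which carry Timd4 as well, were represented by 6 tested genes with a median of -0.18. Serpinb2, a protease inhibitor abundant in them, was 1.22 on WT 2 and -2.07 on WT 3, against -3.41 on KO 2 and -3.38 on KO 3, lower on both KO arrays with a difference of -2.97. Garnl3 differed by -0.36 and Icam2, an adhesion molecule also of endothelium, by 0.34, and Gata6, the factor that defines the large cavity macrophages, had differences of 0.32 at number 2 and 0.01 at number 3. The part of cavity macrophages in the Timd4 values was not tested.

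The pathway partners of the receptors were described in turn. For Vsig4, whose ligands are C3 fragments, 12 complement genes were tested, of which 2 were higher and 5 lower at both numbers, with a median of -0.64. C3 itself was 7.28 on WT 2 and 7.88 on WT 3, against 6.23 on KO 2 and 7.53 on KO 3, lower in KO at both numbers with overlapping groups (difference -0.70). Cfd, the protease that starts the alternative pathway, differed by 3.16, which came from KO 2 alone at 2.43, as described with Cbr2.

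For Cd163, 10 genes of haemoglobin and iron handling were tested, with 1 higher and 4 lower at both numbers and a median of -0.45. Hp (haptoglobin), which carries the haemoglobin that CD163 takes up, was 4.13 on WT 2 and 3.37 on WT 3, against 1.06 on KO 2 and 2.12 on KO 3. Both KO arrays were lower than both WT arrays, and the difference was -2.16. Hmox1, which breaks down haem after uptake, was 2.29, 3.26, 0.25 and 3.58 in the same order, with KO 2 low and KO 3 the highest of the 4 arrays.

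For Timd4 and Gas6, 13 of 14 genes of phosphatidylserine recognition were tested, of which 4 were higher and 4 lower at both numbers, with a median of -0.14. Among the Gas6 receptors, Tyro3 was -1.23 on WT 2 and -0.86 on WT 3, against -2.62 on KO 2 and -1.22 on KO 3 (difference -0.88), Mertk differed by -0.37 and Axl by -0.25. Adgrb1 (BAI1), another phosphatidylserine receptor, differed by 0.65. For Lyve1, 12 hyaluronan genes had a median of -0.22, with 2 higher and 4 lower at both numbers. Tnfaip6, which crosslinks hyaluronan, differed by -1.58 and was lower on both KO arrays than on both WT arrays. Has1, a hyaluronan synthase, differed by -1.04 and Hmmr, a hyaluronan receptor of dividing cells, by 1.01.

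**Figure D4:**
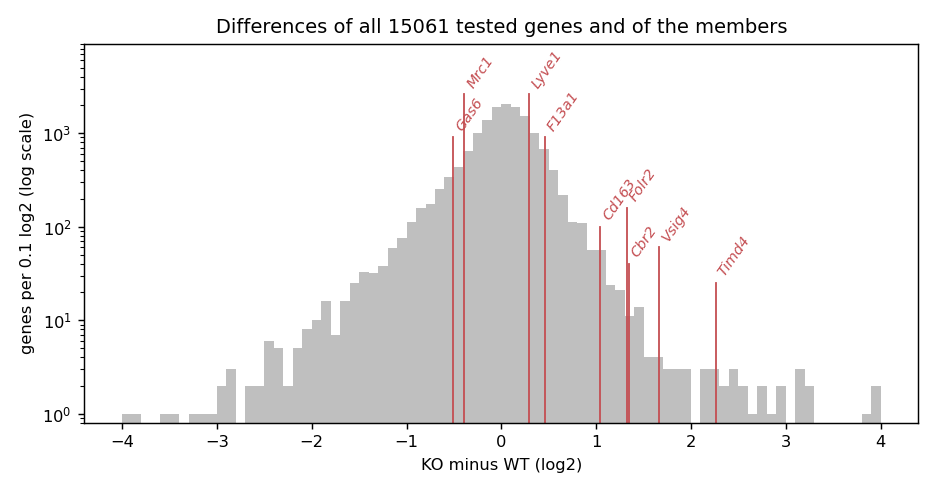
Number of tested genes per 0.1 log2 (y axis, log scale) by KO minus WT difference (x axis, log2), with values beyond 4 in the end bins, and red lines at the 9 genes. Vsig4, Timd4, Folr2, Cbr2 and Cd163 lie above a difference of 1, and Lyve1, F13a1, Mrc1 and Gas6 lie between -0.51 and 0.46.

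Likeness to Vsig4 was measured as the Euclidean distance between the 4 array values of 2 genes after subtracting each gene's own mean, so that a distance of 0 is the same pattern. Among 15060 other tested genes the nearest were Hamp2 (distance 0.29), Olfr1221 (0.44), Dlgap5 (0.46), Cd209f (0.49) and Slc25a18 (0.57). Only Cd209f of these was well above background on all 4 arrays. Of the 9 genes, Folr2 ranked 8, Cbr2 ranked 26 and Cd163 ranked 33, each within the nearest 0.219% of genes, whereas Lyve1 ranked 4804, F13a1 ranked 6745, Timd4 ranked 11046, Mrc1 ranked 12710 and Gas6 ranked 13773. The distance was not scaled to the spread of a gene. A far rank can therefore come from larger or smaller differences between arrays as well as from another direction. Timd4 was higher in KO at both array numbers, as Vsig4 was. Its distance also includes a WT array on which it was not well above background, so nothing is read from its rank. These distances use the same 4 arrays that chose Vsig4, and are a description.

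The 250 bases upstream of the gene start are shown for the 4 genes whose groups did not overlap, as RefSeq gives them on GRCm38.p6, 5′ to 3′ on the gene's strand. Capitals mark matches on either strand to GAGGAA, a core of the sites bound by PU.1, the factor that macrophages depend on, and to TGCTGA, the core of a Maf recognition site. The 2 motifs share no overlapping letters in these windows.

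Vsig4, chrX:96293439-96293688, minus strand: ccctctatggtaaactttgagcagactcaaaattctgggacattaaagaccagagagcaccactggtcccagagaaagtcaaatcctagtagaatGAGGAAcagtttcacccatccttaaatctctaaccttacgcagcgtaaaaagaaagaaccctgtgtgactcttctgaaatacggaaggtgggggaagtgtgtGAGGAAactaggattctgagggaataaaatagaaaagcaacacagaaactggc
Folr2, chr7:101857191-101857440, minus strand: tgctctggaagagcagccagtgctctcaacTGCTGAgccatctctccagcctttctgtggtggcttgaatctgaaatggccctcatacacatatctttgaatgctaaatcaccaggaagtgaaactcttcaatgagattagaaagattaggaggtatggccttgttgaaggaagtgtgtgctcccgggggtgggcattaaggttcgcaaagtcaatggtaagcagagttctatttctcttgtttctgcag
Cd163, chr6:124304401-124304650, plus strand: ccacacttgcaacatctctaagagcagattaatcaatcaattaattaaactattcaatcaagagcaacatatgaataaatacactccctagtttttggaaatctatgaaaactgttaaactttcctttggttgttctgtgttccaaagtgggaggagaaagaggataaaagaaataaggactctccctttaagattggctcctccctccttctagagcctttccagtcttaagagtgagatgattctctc
Cbr2, chr11:120732022-120732271, minus strand: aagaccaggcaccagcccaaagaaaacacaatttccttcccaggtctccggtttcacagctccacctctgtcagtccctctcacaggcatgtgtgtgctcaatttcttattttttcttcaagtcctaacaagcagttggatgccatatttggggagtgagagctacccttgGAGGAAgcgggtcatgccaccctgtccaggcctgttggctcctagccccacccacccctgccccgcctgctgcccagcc

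Vsig4 held 2 matches to GAGGAA and Cbr2 held 1, Folr2 held 1 match to TGCTGA, and Cd163 held 0 of either. Of 32851 windows of this length, 23.3% held GAGGAA and 16.1% held TGCTGA. Among the 10 windows of the 8 genes with an entry, which include second starts of Folr2 and F13a1, 4 held GAGGAA and 3 held TGCTGA. A match is a run of letters and not a measured site, and no binding was measured in these samples.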

How the data were processed

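The authors extracted RNA from left ventricle, hybridized 1 array per sample and deposited the scanner intensity of each spot from Agilent Feature Extraction 10.7 (annotation mm9, background subtracted). They also deposited a table of log2 values, made per the methods with GeneSpring, which matched quantile-normalized scanner values and was used as an alternative. Between 92 and 116 outlier spots per array were left out, spots of 1 probe were averaged, and no spot was saturated. The log2 processed signal was shifted by each array's 75th percentile. A probe was tested when well above background on both arrays of a group. KO and WT were compared with limma 3.58.1 in R 4.3.3 (lmFit, eBayes, Benjamini-Hochberg over 28303 probes), and the fit was tested on simulated data. With several probes, the tested one of highest mean was used. Names came from the files, updated through RefSeq (31437 probes by symbol, 471 by older symbol, 1820 by accession, 7446 without a match). No source used here says how many animals each array stands for. The sex-linked transcripts differ between the 2 arrays of each group, so these do not come from the same animal. The number of arrays limits the precision.

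The members and lists were chosen with earlier results of these data known, and the adipocyte list was added after the values were seen. The lists described were of other resident, general, recruited and cavity macrophages, of complement, iron, phosphatidylserine and hyaluronan genes, and of lymphatic, platelet, fibroblast, cardiomyocyte, neutrophil and adipocyte genes. Among the lists not described further, the median difference was 0.18 over 6 endothelial, -0.02 over 6 B and T cell and -0.82 over 5 mesothelial genes. Named from each list were at most 3 genes by size of difference, well above background on all 4 arrays, and the 5 genes nearest Vsig4. C3, Hmox1, Axl, Mertk, Adipoq, Retn, Lep, Ucp1, Prox1, Itga9, Gata6 were named after their values were seen. Alternatives were normexp with an offset of 50, quantile normalization, a median shift, other filters, the deposited log2 table, a block for array number, leaving out single arrays, the methods' t-test, robust eBayes, the mean of a gene's probes and the pan-macrophage reference. The position of probes within exons was not determined here.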

Additional observations from a re-analysis of the deposited data

Results flagged for a closer look

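Lyve1 differed in opposite directions at the 2 array numbers. KO minus WT was 1.34 at number 2 and -0.75 at number 3, a gap of 2.08 in log2 signal. This difference between the numbers rests on 1 array of each genotype at each number and was not tested. The other probe of Lyve1 went the same way, with 1.44 at number 2 and -1.20 at number 3.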

How the results depend on the processing

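In the settings that kept all 4 arrays, each of the 55 values of the 8 genes other than Vsig4 kept its direction. Their adjusted p-values were 0.859 or more by limma. The filters and the block for array number could not change a difference of means, and the deposited log2 table repeated quantile normalization. Only normexp, quantile normalization and the median shift could have turned a direction. The Vsig4 difference of 1.67 was 1.14 with normexp background correction and between 1.67 and 1.72 with the other normalizations and filters, and the median over the 9 genes was 0.75 when Timd4 was left out by asking for signal well above background on all 4 arrays. Timd4 was 0.96 with normexp and between 2.17 and 2.29 with the other normalizations. The methods' t-test gave 88 probes with a fold over 2 at its unadjusted threshold and 0 after Benjamini-Hochberg adjustment. With the array number as a replicate block, 0 probes passed and 602 had an unadjusted p under 0.05, against 410 without it, and the Vsig4 difference was 1.67 in both. The numbers are not stated to pair the samples, and the deviations of WT 2 and KO 2 from their group means correlated at 0.57 across 28303 probes. Leaving out each array in turn, 29 of 32 values of the 8 genes kept their direction and no adjusted p was below 0.132. Lyve1 ranged from -0.54 to 1.12, Mrc1 from -0.82 to 0.035 and Gas6 from -1.18 to 0.17, and all 3 turned without KO 2. In the same settings Vsig4 ranged from 1.18 to 2.16, Vsig4 less the pan-macrophage mean from 0.58 to 3.73, the median over the 9 genes from 0.52 to 1.46, Timd4 from 0.31 to 4.22, Folr2 from 0.81 to 1.84, Cd163 from 0.36 to 1.73, Cbr2 from 0.52 to 2.17 and F13a1 from 0.07 to 0.85, and 0 probes passed. The count of genes higher at both numbers cannot be had with an array left out. It was 5 among the 8 genes well above background on all arrays, 5 relative to the pan-macrophage mean and 6 in the other settings.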
